A study of Mus musculus with 56 samples.

Results

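Sulfation genes of mouse liver were followed through a day of restricted feeding. The set held 10 genes, namely 9 cytosolic sulfotransferases (Sult2a1, Sult2a2, Sult2a3, Sult2a5, Sult2a8, Sult1a1, Sult1b1, Sult1d1 and Sult3a1) and the sulfate-activating enzyme Papss2. They were found by symbol among 25415 listed genes, of which 25386 could be tested, and all 10 were listed and tested. The members were chosen by gene family after the measured level of Sult2a3 was known to differ between the feeding regimens, so differences between regimens in level are given here as descriptions without a test, while rhythms within and between regimens were tested.

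The livers came from 56 female C57BL/6J mice aged 9 weeks, one library per animal. All had arrived at 7 weeks, lived in groups under 12 h of light per day with free access to chow for 7 days, and then had food only by day (daytime-restricted feeding, DRF) or only by night (nighttime-restricted feeding, NRF, the control) for another 7 days. Collection was at 0, 4, 8, 12, 16, 20 and 24 h from the start of the light phase, written as zeitgeber times (ZT), which gave 14 groups of 4 animals. These are whole livers, in which fewer cells of a type and less RNA per cell cannot be told apart.

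Sulfotransferases move a sulfo group from the donor PAPS onto hydroxyl or amine groups of steroids, bile acids, thyroid hormones, catecholamines and drugs, which makes them more water-soluble and often inactive. PAPS is made from ATP and sulfate by the PAPS synthases Papss1 and Papss2. In mice several hepatic Sult2a genes, among them Sult2a1, are known as female-predominant, and nuclear receptors for xenobiotics and bile acids are known regulators of the family.

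Values are scaled counts, which are whole counts recovered from the deposited values and divided by a library scale so that libraries sum to between 843699 and 1051370. They compare libraries, and only values divided by exon length (per kb) compare genes. As a measure of depth, 1 scaled count stood for between 304 and 723 recovered counts, depending on the library. Recovered counts are not known to be single reads, so the spread between animals is the error used. Median correlations with replicates of the same group, across genes, lay between 0.948 and 0.985. Of 5 hepatocyte markers 4 were listed, and they summed to between 100577 and 135697 scaled counts under DRF and between 96240 and 151190 under NRF. The 9 markers of other liver cells summed to between 586 and 794 under DRF and between 593 and 818 under NRF. By limma 0 of these 9 differed in daily mean between regimens (adjusted p under 0.05), where 4.09% of all genes rose and 2.69% fell under DRF. At an unadjusted p under 0.05, 1 of the 9 was higher and 1 lower under DRF. Of the 4 hepatocyte markers, 1 was higher and 1 lower under DRF at an adjusted p under 0.05. On log2(scaled count + 1), DRF minus NRF was 0.24 ± 0.07 (SE) for Cps1 and -0.33 ± 0.10 for Apoa1 (limma adjusted p = 0.0351 and 0.0328).

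Of the members, 6 lie on mouse chromosome 7 (GRCm38, GENCODE vM21). Sult2a5 (ENSMUSG00000078799, + strand, 13623967 to 13670807), Sult2a2 (ENSMUSG00000070811, + strand, 13733505 to 13779636), Sult2a1 (ENSMUSG00000078798, - strand, 13796246 to 13837409), Sult2a3 (ENSMUSG00000074375, - strand, 14067446 to 14123044) and Sult2a8 (ENSMUSG00000030378, - strand, 14410686 to 14446769) form a cluster there. Sult1a1 (ENSMUSG00000030711, - strand, 126672865 to 126676432) lies far from it on the same chromosome and overlaps Sgf29 on the other strand. Sult1b1 (ENSMUSG00000029269, 87513339 to 87538195) and Sult1d1 (ENSMUSG00000029273, 87554645 to 87569027) are neighbours on the - strand of chromosome 5. Sult3a1 (ENSMUSG00000069668, + strand of chromosome 10, 33857721 to 33879532) and Papss2 (ENSMUSG00000024899, + strand of chromosome 19, 32595790 to 32667187) lie on chromosomes of their own, and Sult3a1 overlaps Gm47935 on the other strand. Whether reads were counted by strand is not known, so Sult1a1 and Sult3a1 may share reads with these partners. On the same strand, Sult2a1 overlaps Kat6b-ps2, Sult2a2 overlaps Zbed4-ps2, and Sult2a5 overlaps Kat6b-ps1 and Zbed4-ps1. These overlaps are of whole gene spans, and whether reads are shared there was not tested.

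The Sult2a genes resemble each other closely, which bears on how reads were shared out among them. Of all stretches of 100 bases in the annotated transcripts of Sult2a2, 34.6% also occur in another gene, with 18.8% in Sult2a5 and 16.4% in Sult2a1. The share was 16.6% for Sult2a5 and 11.4% for Sult2a1, so the split of reads among these 3 genes is uncertain. It was 0.0% for Sult2a3, Sult2a8, Sult1b1, Sult1d1, Sult3a1 and Papss2 and 1.8% for Sult1a1.

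The likeness extends upstream. RefSeq promoter windows (GRCm38.p6, from 250 bases before to 50 after the start) were matched for 8 of the 10 members, but not for Sult2a1 and Sult2a2. The windows of Sult2a5 (+ strand, chr7:13623717-13624016) and Sult2a3 (- strand, chr7:14122999-14123298) are shown because these genes had the largest differences between regimens and varied together from animal to animal. Capitals mark matches to known nuclear receptor motifs, searched on both strands. The motif AGTTCA reads in reverse on the strand shown, and GGGTCA reads forward.
Sult2a5: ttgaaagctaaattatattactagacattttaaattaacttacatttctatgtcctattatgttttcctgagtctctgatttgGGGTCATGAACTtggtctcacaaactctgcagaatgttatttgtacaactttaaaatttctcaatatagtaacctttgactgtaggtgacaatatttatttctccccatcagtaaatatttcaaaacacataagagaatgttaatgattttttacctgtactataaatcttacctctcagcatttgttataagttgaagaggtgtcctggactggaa
Sult2a3: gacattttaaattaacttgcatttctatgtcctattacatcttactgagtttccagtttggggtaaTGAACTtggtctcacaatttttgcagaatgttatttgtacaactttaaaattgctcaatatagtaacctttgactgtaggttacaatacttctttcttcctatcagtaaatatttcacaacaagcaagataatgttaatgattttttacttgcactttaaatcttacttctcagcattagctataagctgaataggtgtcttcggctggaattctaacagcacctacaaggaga

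Laid over each other with an offset of 23 bases, the windows were identical at 242 of 277 bases (87.4%). Sult2a5 held GGGTCA at -167 and AGTTCA at -161 from the start, which adjoin as an inverted pair of 12 bases. Sult2a3 held AGTTCA alone, at -184. Within the pair they differed by C88A, where positions count from 1 at the 5′ end of the Sult2a5 window. Among 32851 promoter windows of this length, 14% held AGTTCA, 13.7% held GGGTCA and 16.3% held AGGTCA. Members with smaller differences between regimens held these motifs too. Over its windows Sult2a8 held each of them, Sult1b1 held AGTTCA and AGGTCA, Sult1d1 held AGTTCA and Papss2 held AGGTCA. Sult1a1 and Sult3a1 held none of them. The motif TTCNNNGAA, which STAT proteins recognise, was in 8.30% of windows and in none of the Sult2a windows read here.

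Levels differed by orders of magnitude within the family. Per kb of exon, over all 56 libraries, Sult2a2 stood at 5077 ± 1909 scaled counts (SD, n = 56) and Sult2a1 at 2632 ± 1342. Sult2a8 (153 ± 27.8), Sult2a5 (137 ± 81.4), Sult1a1 (115 ± 19.5), Sult1d1 (109.5 ± 40.4) and Papss2 (79.7 ± 18.03) followed, each within the spread of its neighbours in this order. Sult3a1 (35.2 ± 15.9), Sult2a3 (19.5 ± 23.4) and Sult1b1 (12.7 ± 2.58) were lowest, and their order is likewise within the spread. By regimen, Sult2a5 was at 196 ± 67.5 per kb under DRF, above the mean of Sult2a8 (152 ± 29.3), and at 77.6 ± 41.2 under NRF, below the means of Sult1a1 (106 ± 20.5) and Sult1d1 (92.8 ± 36.4), within the spread in each case (n = 28). Under NRF alone Sult2a3, at 4.36 ± 3.08 per kb (n = 28), stood below Sult1b1, at 12.1 ± 3.02, while under DRF Sult2a3, at 34.7 ± 25.1, stood above Sult1b1, at 13.3 ± 1.94.

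The hydroxysteroid sulfotransferases Sult2a1, Sult2a2, Sult2a3 and Sult2a5 had higher levels under DRF, and the group mean was higher under DRF at 7 of 7 times for each of them. Sult2a3 had the largest difference, 7.96-fold in mean scaled counts. Sult2a5, Sult2a1 and Sult2a2 followed with 2.52-fold, 1.85-fold and 1.68-fold.

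Sult2a3 was lowest in level of the 4. Under DRF the libraries in order of replicate number held 68.1, 54.6, 20.6 and 21.1 scaled counts at ZT0, and 7.38, 26.7, 21.5 and 39.2 at ZT4. They held 100.6, 9.87, 37.0 and 24.5 at ZT8, and 25.1, 17.7, 13.2 and 26.8 at ZT12. They held 49.6, 49.7, 31.0 and 36.6 at ZT16, 2.68, 22.5, 14.1 and 22 at ZT20, and 59.7, 23.0, 106 and 58.4 at ZT24. The lowest were replicate 1 of ZT20, replicate 1 of ZT4 and replicate 2 of ZT8.

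Under NRF Sult2a3 was at 0.0306, 7.88, 3.41 and 2.94 at ZT0, at 11.6, 6.76, 1.19 and 2.10 at ZT4, and at 3.59, 3.21, 6.54 and 0.759 at ZT8. It was at 1.54, 4.79, 6.88 and 6.45 at ZT12, and at 11.3, 7.51, 0.731 and 4.57 at ZT16. It was at 1.77, 3.50, 3.34 and 9.44 at ZT20 and at 4.51, 1.95, 1.52 and 4.54 at ZT24. Of the 28 DRF libraries, 25 lay above the highest NRF library, and the groups did not overlap at ZT0, ZT8, ZT12, ZT16 and ZT24. On log2(scaled count + 1), a scale that understates changes of low genes, the daily mean difference was 2.60 ± 0.27 (SE), or 2.98 with a pseudocount of 0.1, and 0 of the 25386 genes tested had a larger one in the same direction. At single times it ran from 1.43 ± 0.67 at ZT20 to 3.83 ± 0.67 at ZT24.

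Sult2a5 ranged from 95.5 through a median of 198 to 412 scaled counts under DRF and from 4.58 through 77.5 to 172 under NRF. At ZT0 the DRF libraries held 238, 247, 193 and 146 and the NRF libraries 4.58, 104, 81.0 and 62.5. At ZT8 they held 412, 141, 163 and 229 against 44.4, 35.2, 93.4 and 21.5. The groups did not overlap at these times, nor at ZT4, ZT16 and ZT24, and 28 of 28 DRF libraries exceeded the NRF median. The daily mean difference was 1.52 ± 0.23 on the log2 scale.

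Sult2a1, the member best known for sulfating steroids such as DHEA, ranged from 1422 through 3342 to 6095 under DRF and from 62.8 through 1819.7 to 4894 under NRF. At ZT0 the DRF libraries held 3409, 2978, 3299 and 3236 and the NRF libraries 62.8, 2243, 2253 and 1623. At ZT20 they held 1422, 3406, 2856 and 2730.1 against 1429.6, 1767, 2633 and 3966. The groups were apart at ZT0, ZT8, ZT12 and ZT24 and overlapped at ZT4, ZT16 and ZT20. The log2 daily mean difference was 1.18 ± 0.26.

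Sult2a2, the most abundant member, ranged from 2578 through 4638 to 6757 under DRF and from 297 through 2867 to 4632 under NRF. The ZT16 libraries held 6414, 5577, 5562 and 6356 under DRF and 4632, 4534, 766 and 3609 under NRF, which did not overlap. Its log2 daily mean difference was 0.88 ± 0.18. For each of Sult2a1, Sult2a2, Sult2a3 and Sult2a5 the smallest of the 7 single-time differences was at ZT20, with 0.13 ± 0.68 for Sult2a1, 0.22 ± 0.46 for Sult2a2 and 0.54 ± 0.59 for Sult2a5. Replicate 1 of DRF ZT20 was the lowest DRF library for each of these genes, and its part in this was not tested. The genes varied together from animal to animal, so these are not separate observations.

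**Figure D1:**
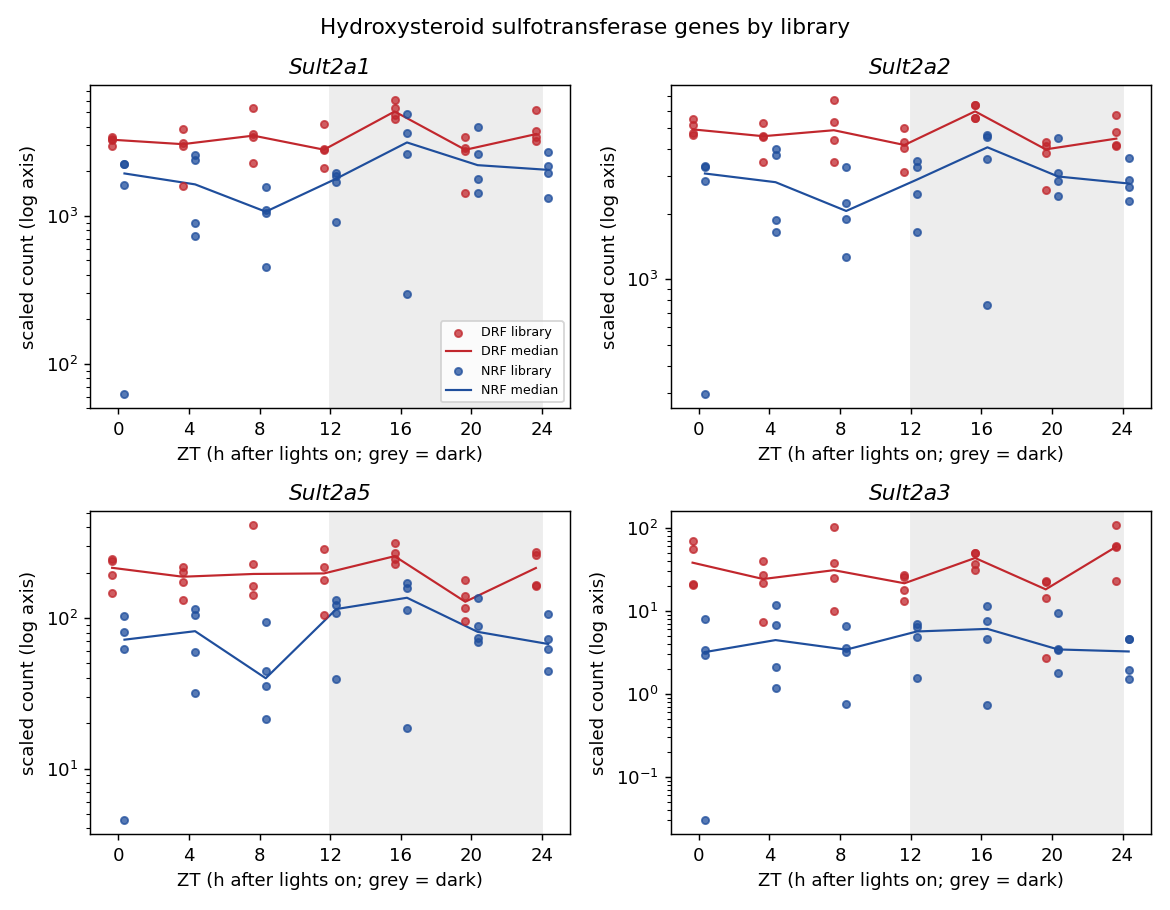
Scaled counts (log axis) of Sult2a1, Sult2a2, Sult2a5 and Sult2a3 against ZT in hours, with a point per library (n = 4 per group), lines through group medians and the dark phase in grey. DRF libraries lie above most NRF libraries at most times, and the lowest NRF point of each panel is replicate 1 at ZT0.

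Sult2a8, which sulfates bile acids and is best known from male mice, did not share this pattern. Its libraries ranged from 361 through 480.3 to 735 under DRF and from 358 through 502 to 675 under NRF, and 10 of 28 DRF libraries exceeded the NRF median. The log2 daily mean difference was -0.02 ± 0.06, and the groups were apart only at ZT20.

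The sulfotransferases of phenols and catecholamines had smaller differences. Sult1d1, which acts on catecholamines, ranged from 167 through 304 to 485 under DRF and from 116 through 203 to 444 under NRF, a 1.36-fold higher mean under DRF. Sult1a1, the main phenol sulfotransferase, ranged from 142 through 189.7 to 236 and from 105 through 157 to 232, which is 1.17-fold. Sult1b1, which acts on thyroid hormones, ranged from 27.2 through 37.2 to 52.7 and from 22.1 through 30.8 to 57.1, which is 1.09-fold. The log2 daily mean differences were 0.44 ± 0.09, 0.22 ± 0.04 and 0.09 ± 0.05, respectively. For Sult1d1 too the group mean was higher under DRF at 7 of 7 times, and it was higher at 6 for Sult1a1 and at 5 for Sult1b1.

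Papss2 ranged from 185 through 295 to 425 under DRF and from 172 through 268 to 446 under NRF, with a log2 difference of 0.19 ± 0.07. Sult3a1, an amine sulfotransferase, ranged from 11.7 through 33.7 to 73.0 and from 14.8 through 40.9 to 77.7, with a log2 difference of -0.25 ± 0.15. The gene and transcript values of Sult3a1 lay far apart. In the transcript table, in deposited units, its 1047-base transcript had a median of 13.6 under DRF, against 93.1 for the Sult2a3 transcript of 1018 bases, while the medians of both genes in the gene table were 181 and 188. The same Sult3a1 transcript had a median of 11.4 under NRF, with 20 of 28 DRF libraries above the NRF median, where for the gene 8 of 28 were. The Sult3a1 values given here are those of the gene, and whether they hold reads from outside the annotated transcripts was not tested. For Papss2, the 3635-base transcript had deposited medians of 12.4 under DRF and 28.4 under NRF, with 6 of 28 DRF libraries above the NRF median, while for the gene 19 of 28 were above it. The other Papss2 transcripts had higher medians. The 3618-base transcript was at 45.3 under DRF and 43.7 under NRF, with 23 of 28 above. The 2047-base transcript was at 41.9 and 41.6, with 14 of 28 above. These deposited values are not linear, and the difference was not tested.

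Over the 10 members the median log2 daily mean difference was 0.33, against -0.002 over all genes tested. The counts that follow use the contrast by which the set was chosen, so they are descriptions and nothing about the members is read from them. At single times, 27 of 70 member and time pairs had all 4 DRF libraries above all 4 NRF libraries, against 9.37% of all gene and time pairs, and 1 had them below, against 8.63%. By time, from ZT0 to ZT24, the numbers of members above were 7, 3, 5, 2, 3, 2 and 5 of 10, where 9.7%, 11.7%, 8.65%, 7.49%, 9.19%, 10% and 8.8% of all genes were. The member below was Sult3a1 at ZT8, and the shares of all genes below were 9.75%, 10.6%, 9.32%, 8.65%, 6.65%, 7.5% and 7.95%.

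**Figure D2:**
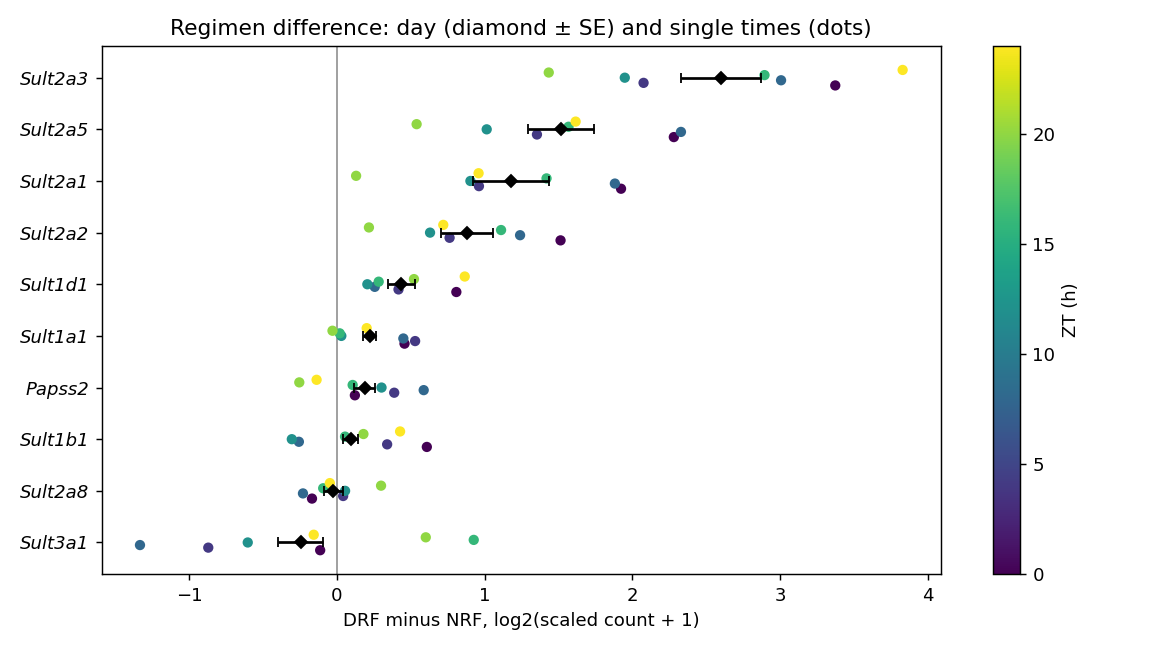
Difference DRF minus NRF in log2(scaled count + 1) for the 10 genes, as the daily mean with its SE (diamond, 28 libraries per regimen) and at each of 7 times (dots coloured by ZT in hours). Sult2a3 has a daily mean difference of 2.60 and Sult3a1 spreads from -1.33 at ZT8 to 0.93 at ZT16.

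Diurnal rhythms were tested next, with limma F tests of 24-h cosine terms and Benjamini-Hochberg adjustment over all genes. Under DRF, Sult1d1, Papss2, Sult2a8 and Sult3a1 were rhythmic, which is 4 of 10 members where 34.9% of all genes were. Under NRF, Sult1a1, Sult1b1, Sult1d1, Sult3a1 and Papss2 were rhythmic, which is 5 of 10 where 43.5% were. The rhythm differed between regimens for Sult1a1, Sult1b1, Sult3a1 and Papss2, which is 4 of 10 where 38.7% of genes did. These shares are near those of all genes.

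Sult1a1 cycled under NRF with a peak at ZT17.4 ± 0.44 h (SE) and an amplitude of 38.7 ± 5.07 scaled counts, 24.1% of its mean (adjusted p = 7.2e-08). The NRF libraries held 142, 157, 123 and 105 at ZT4 and 138, 129, 129 and 117 at ZT8, and rose to 174, 198, 211 and 232 at ZT16. Under DRF they held 174, 184, 178 and 219 at ZT4, 196, 142, 172 and 198 at ZT8, and 236, 193, 192 and 203 at ZT16, with an amplitude of 9.83 ± 5.63 (adjusted p = 0.312). The regimens did not overlap at ZT0, ZT4 and ZT8 and had mean ratios from 0.979 to 1.02 at ZT12, ZT16 and ZT20. The difference in rhythm passed the test (adjusted p = 0.00039), but not without the libraries of replicate 4 (adjusted p = 0.0873). Without those of replicate 1 the DRF rhythm passed as well (adjusted p = 0.0320).

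Sult1b1 rose by day under NRF, from 24.1, 22.1, 27.1 and 27.9 at ZT0 to 36.8, 57.1, 41.8 and 54.9 at ZT12, and was back at 26.4, 27.2, 26.0 and 27.5 by ZT20. Its NRF peak was at ZT10.9 ± 0.63 h with an amplitude of 25.8% of the mean (adjusted p = 2.9e-07). Under DRF it held 39.3, 38.9, 36.6 and 41.1 at ZT0 and 41.5, 40.3, 34.7 and 34.8 at ZT12, and no 24-h rhythm passed (adjusted p = 0.404). The DRF group lay above NRF without overlap at ZT0 and ZT4. The difference in rhythm had an adjusted p of 1.6e-05.

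Sult1d1 kept a rhythm of like size in both regimens. Its amplitude was 111 ± 16.5 scaled counts (36.1% of the mean) under DRF and 89.0 ± 19.4 (38.1%) under NRF (adjusted p = 5.5e-05 and 3.8e-05). It was low at ZT8, with 221, 167, 215 and 215 under DRF and 181, 173, 208 and 129 under NRF. It was high at ZT20, with 355, 429, 472 and 362 against 262, 265, 337 and 259.7, where the regimens did not overlap. The peak was at ZT18.8 ± 0.51 h under DRF and at ZT16.4 ± 0.76 h under NRF, a shift of 2.43 ± 0.92 h, and the test of the rhythm difference gave an adjusted p of 0.0997. Without replicate 3 of NRF ZT16, which held 161 scaled counts beside 384, 444 and 367, that p was 0.0273.

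Papss2 peaked at ZT10.7 ± 0.64 h under DRF, with an amplitude of 66.4 ± 10.1 scaled counts (adjusted p = 0.00061). Its DRF libraries held 425, 336, 359 and 370.5 at ZT12 and 241, 221, 233 and 253 at ZT20, which did not overlap. Under NRF the peak was at ZT16.2 ± 1.38 h and the amplitude 44.5 ± 17.3 (adjusted p = 0.0230), with 212, 318, 274 and 446 at ZT12 and 248.9, 266, 257 and 375 at ZT20. The DRF peak was thus 5.45 ± 1.52 h earlier, and the difference in rhythm had an adjusted p of 0.00775. The NRF rhythm lost its call without replicate 2 of NRF ZT16 (adjusted p = 0.0585) and in the rank test (adjusted p = 0.170), and the difference without the libraries of replicate 1 (adjusted p = 0.0614).

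Sult3a1 had nearly opposite phases, peaking at ZT18.9 ± 1.08 h under DRF and at ZT6.47 ± 1.01 h under NRF, which is 11.6 ± 1.48 h apart. At ZT8 the libraries held 11.8, 25.0, 28 and 23.5 under DRF and 70.5, 72.7, 36.7 and 46.8 under NRF without overlap. At ZT16 they held 71.9, 27.5, 72.0 and 37.0 against 33.5, 26.6, 14.8 and 28.4. Adjusted p values were 0.0198 under DRF, 0.0156 under NRF and 0.00039 for the difference. These are values of the gene, which lay far from those of its transcripts as given above. Both single-regimen calls depended on the setting. The DRF call was lost without replicate 1 of DRF ZT8 (adjusted p = 0.0684) and with the library length index in the fit (adjusted p = 0.358), and the NRF call in the rank test (adjusted p = 0.0723).

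Sult2a8 had its highest means at ZT12 in both regimens, with libraries at 735, 614, 587 and 614 under DRF and at 535, 586, 675 and 660.4 under NRF. The 24-h rhythm passed under DRF (adjusted p = 0.0197, amplitude 15% of the mean, peak at ZT16.0 ± 1.11 h), while under NRF the adjusted p was 0.127 and for the difference 0.620. The DRF call was lost with the length index (adjusted p = 0.161) and in the rank test (adjusted p = 0.0942). The NRF rhythm passed without the ZT24 libraries (adjusted p = 0.0172) and with the deposited values (adjusted p = 0.0183).

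No 24-h rhythm was called for Sult2a1, Sult2a2, Sult2a3 and Sult2a5 in either regimen. Their adjusted p ran from 0.879 to 0.993 under DRF and from 0.264 to 0.751 under NRF. Under NRF the fitted amplitude of Sult2a1 was 761 ± 292 scaled counts, 40.6% of its mean, so an oscillation of that size was not told apart from the spread between animals. Without replicate 1 of NRF ZT0 its NRF adjusted p was 0.0505, and without replicate 3 of NRF ZT16 that of Sult2a5 was 0.0431.

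**Figure D3:**
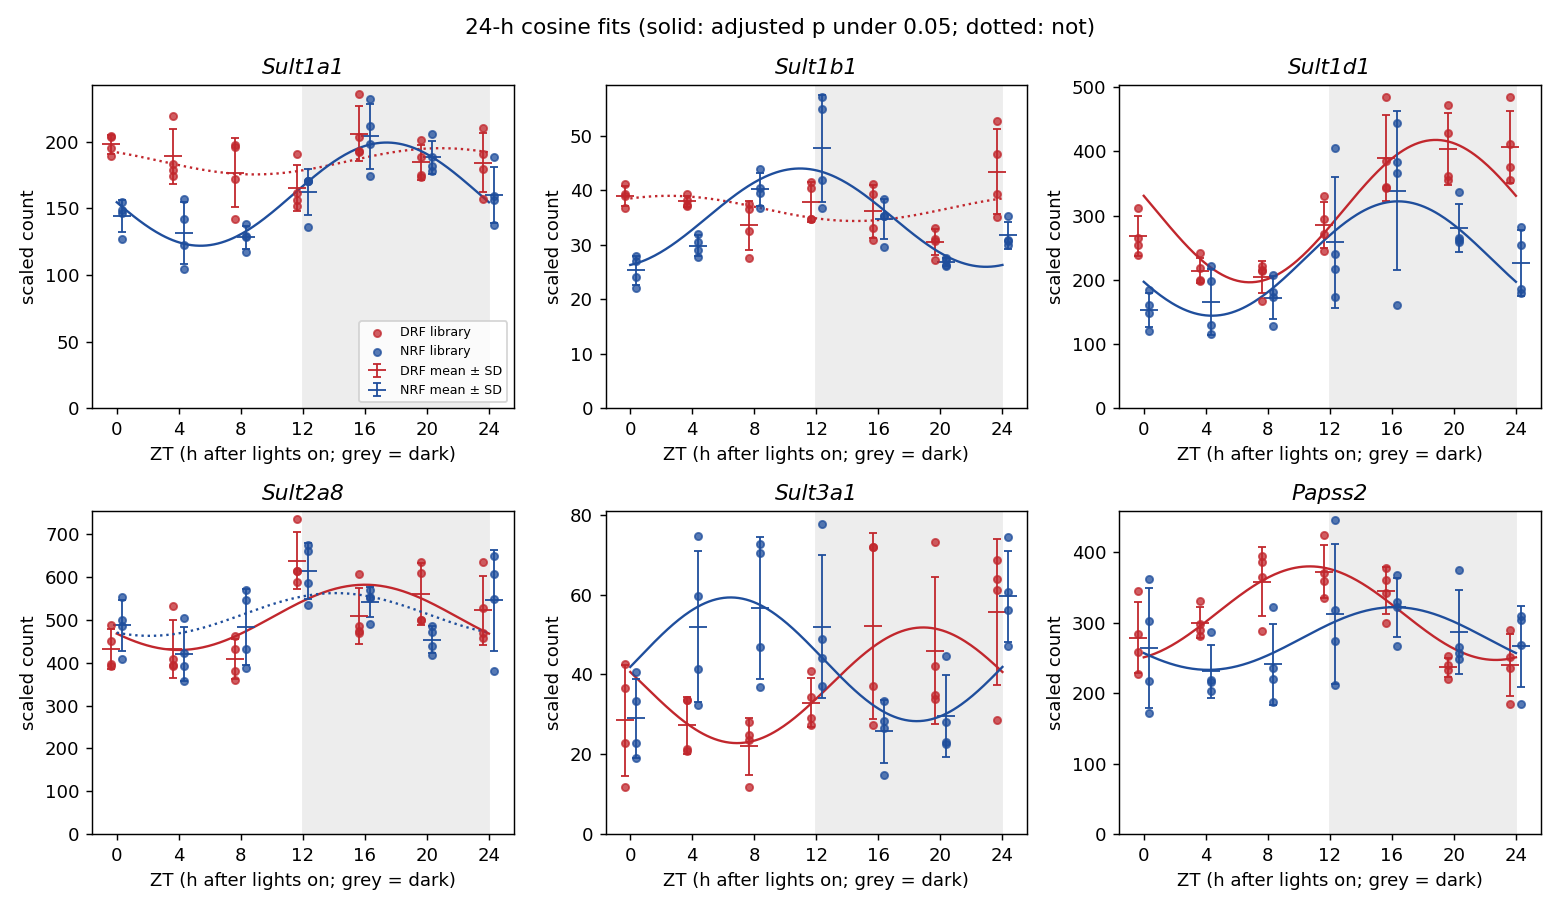
Scaled counts of Sult1a1, Sult1b1, Sult1d1, Sult2a8, Sult3a1 and Papss2 against ZT in hours, with points per library, mean ± SD per group of 4 and the 24-h cosine fit of each regimen, solid where its adjusted p is under 0.05 and dotted where it is not. Sult1a1 and Sult1b1 have solid NRF and dotted DRF curves, and the Sult3a1 curves peak 11.6 h apart.

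ZT0 and ZT24 fall at the same clock time and serve as a check of the time axis. By limma, 0 of 10 members differed between them under DRF, where 3.07% of genes did, and 0 of 10 under NRF, where 7.83% did. At an unadjusted p under 0.05 there were 2 under DRF (Sult1d1 and Sult3a1) and 3 under NRF (Sult1b1, Sult1d1 and Sult3a1), and no other tool was run for this contrast. Sult3a1 came nearest, higher at ZT24 by 1.01 ± 0.35 under DRF and 1.05 ± 0.35 under NRF on the log2 scale (adjusted p = 0.104 and 0.0564). It passed under DRF without replicate 2 of DRF ZT24 (adjusted p = 0.0452), and under NRF when any 1 of 5 libraries was left out (adjusted p as low as 0.0399). The fitted log2 amplitudes of Sult3a1, from mean to peak, were 0.54 under DRF and 0.55 under NRF. Sult1d1 was higher at ZT24 by 0.60 ± 0.22 and 0.54 ± 0.22, beside amplitudes of 0.54 and 0.53. A 24-h cosine takes the same value at ZT0 and ZT24, so the fits of both genes average over these gaps. A 12-h component was called for Sult1b1 under DRF (limma adjusted p = 0.0323), which is 1 of 10 members where 4.70% of genes passed. Leaving out any 1 of 7 libraries ended this call (adjusted p up to 0.0984). Such a component was called for 0 of 10 under NRF by limma, where 1.99% passed and 2 members had an unadjusted p under 0.05.

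Sult2a1, Sult2a2, Sult2a3 and Sult2a5 rose and fell together from animal to animal. Within-group deviations, which are log2 values minus the mean of the 4 libraries of a group, were correlated over 56 animals for 45 pairs of members and for Sult2a1 with 20 sex-biased genes (65 relations, adjusted together). Deviations were permuted over all 56 animals, though those of a group depend on each other and their spread differed between regimens. The p values may thus be too small, which matters most near the threshold. Sult2a2 followed Sult2a1 with r = 0.986 and rho = 0.951 (adjusted permutation p = 3e-05 and 4e-05, raw p = 1e-05, the smallest that 100000 permutations can give, with the same adjusted values wherever the raw p is 1e-05 below). Leaving out the 2 animals farthest from the median of Sult2a1 gave r = 0.969. For Sult2a5 and Sult2a1 r was 0.924 (0.856 without those 2 animals), with the same smallest p. Sult2a1 shares stretches of sequence with both genes, and their part in these relations was not tested.

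Sult2a3, which shares no stretch of 100 bases with another gene, also followed Sult2a1, with r = 0.784 and rho = 0.798 (permutation p = 1e-05 for both). Here r was 0.845 within DRF, 0.882 within NRF and 0.80 without the 2 farthest animals. Sult1d1, on another chromosome, had r = 0.681 and rho = 0.708 with Sult2a1 (permutation p = 1e-05 for both), with 0.485 within DRF, 0.714 within NRF and 0.649 without the 2 farthest. In all, 20 of 45 pairs passed an adjusted permutation p of 0.05, with positive r from 0.412 to 0.986. These 20 kept their sign within each regimen. The lowest, Sult2a1 with Papss2, had r = 0.08 within DRF, 0.48 within NRF and 0.29 without replicate 1 of NRF ZT0. How often pairs of other genes pass was not computed, so nothing particular to the family is read from this count. Sult2a8 with Sult2a1 had r = -0.210 and rho = -0.192 (adjusted permutation p = 0.173 and 0.220; r = -0.161 without the 2 farthest).

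The spread between animals was wider under NRF for Sult2a1, where the within-group SD on the log2 scale was 1.31 against 0.41 under DRF. It was 0.90 against 0.27 for Sult2a2 and 1.11 against 0.45 for Sult2a5, but 0.99 against 0.94 for Sult2a3. A pair of NRF libraries contributed much of this. Replicate 1 of ZT0 held 62.8 scaled counts of Sult2a1 beside 1623 to 2253 in its group, and 4.58 of Sult2a5 beside 62.5 to 104. Replicate 3 of ZT16 held 295 of Sult2a1 beside 2625 to 4894 and 18.6 of Sult2a5 beside 114 to 172. Without both, the NRF SD was 0.63 for Sult2a1, 0.45 for Sult2a2, 0.65 for Sult2a5 and 0.81 for Sult2a3. Under DRF the library lowest in all 4 genes was replicate 1 of ZT20. Leaving out replicate 1 of NRF ZT0 gave daily mean differences of 1.04 for Sult2a1, 0.79 for Sult2a2, 2.54 for Sult2a3 and 1.41 for Sult2a5. Over all 56 single-library omissions the difference of Sult2a3 stayed between 2.51 and 2.71.

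Genes that male livers are known to express more moved the other way in the same animals. Hsd3b5, a steroid dehydrogenase of male liver, was at 70.7 scaled counts in replicate 1 of NRF ZT0, the highest of the 28 NRF libraries, beside 4.50 to 7.59 in its group. Slco1a1, an organic anion transporter, was at 210.3 there, also the highest, beside 27.7 to 61.2. Albumin stood at 89569 there, beside 87499 to 89502. In replicate 3 of NRF ZT16, Hsd3b5 was at 10.04 beside 1.10 to 2.10 and Slco1a1 at 124 beside 44.7 to 51.8. Other NRF libraries were higher, 9 for Hsd3b5 and 3 for Slco1a1. Albumin was at 125977 in that library, the highest of the 28 NRF libraries, beside 73490 to 102108. The median correlation of that library with its replicates, 0.948, was the lowest of all 56. Xist was at 138 scaled counts in replicate 1 of NRF ZT0 and at 162 in replicate 3 of NRF ZT16, where all 56 libraries ran from 68.9 to 181. Over 56 animals Hsd3b5 had r = -0.828 and rho = -0.806 with Sult2a1 (permutation p = 1e-05 for both), with -0.726 within DRF, -0.839 within NRF and -0.768 without the 2 farthest. Of 10 male-predominant genes 9 were negatively related to Sult2a1 past an adjusted permutation p of 0.05 (r from -0.828 to -0.400). Of these, 8 kept the sign within DRF and 9 within NRF. The other had r = 0.02 within DRF and -0.93 within NRF. Of 10 female-predominant genes 7 were positively related (r from 0.362 to 0.765), and 7 kept the sign within each regimen. Among them Cyp3a44 had r = 0.13 within DRF and 0.47 within NRF, and Hao2 0.18 and 0.50. How often genes of no sex bias pass was not computed, so nothing particular to sex-biased genes is read from these counts.

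**Figure D4:**
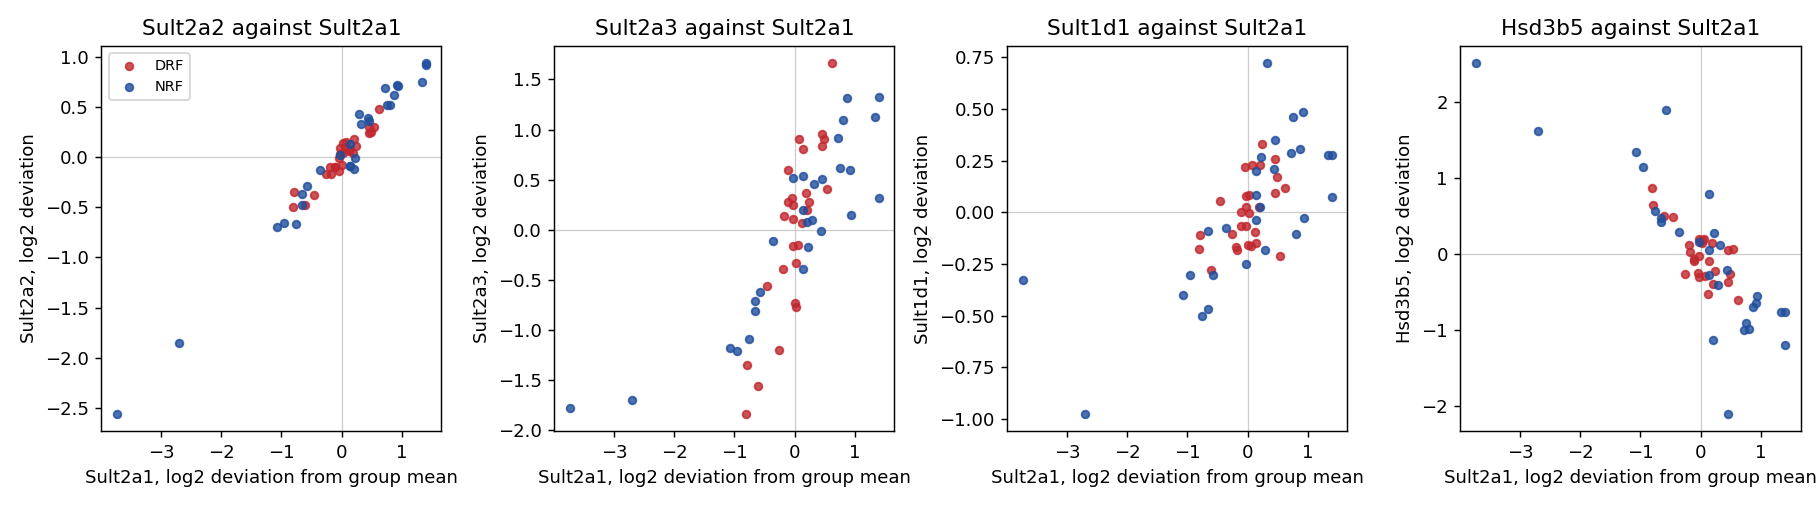
Log2 deviations from the group mean of Sult2a2, Sult2a3, Sult1d1 and Hsd3b5 (vertical axes) against those of Sult2a1 (horizontal), with a point per animal (28 DRF, 28 NRF). Sult2a2 (r = 0.986) and Sult2a3 (r = 0.784) climb with Sult2a1 while Hsd3b5 (r = -0.828) declines, and a pair of NRF animals lies far to the left.

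In daily mean, 5 of 10 male-predominant genes fell under DRF, where 2.69% of all genes did, and 0 rose by limma, at an unadjusted p under 0.05 too. On the log2 scale Serpina1e fell by 2.29 ± 0.20, Hsd3b5 fell by 2.14 ± 0.26 and Slco1a1 fell by 1.86 ± 0.22 (limma adjusted p = 3.0e-12, 4.4e-08 and 2.4e-08). The whole list summed to between 515 and 1027 scaled counts under DRF (median 656) and between 613 and 3415 under NRF (median 1852). Of 10 female-predominant genes 4 rose and 2 fell, where 4.09% and 2.69% of all genes did. Hao2 rose by 0.64 ± 0.19, while Cyp3a44 fell by 1.91 ± 0.19 and A1bg fell by 1.36 ± 0.24 (limma adjusted p = 0.0316, 4.4e-10 and 8.1e-05), so this list did not move one way with Sult2a1. It summed to between 4945 and 9635 under DRF and between 2645 and 8300 under NRF. Both lists were chosen with earlier results of these data known, and the genes named had the largest differences. Their counts and p values for the daily mean are therefore descriptions. The part of both lists in the regimen difference of the Sult2a genes was not tested.

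Among 7 further sulfotransferases that were listed, of 12 sought, 3 rose under DRF and 1 fell (against 4.09% and 2.69% of all genes). Sult1e1, the estrogen sulfotransferase, rose by 1.3 ± 0.30, Sult2a7 by 0.68 ± 0.21 and Sult2a4 by 0.63 ± 0.20 on the log2 scale (limma adjusted p = 0.00313, 0.0359 and 0.0420). This list was chosen with earlier results of these data known, and Sult2a4 and Sult2a7 were named after their values were seen. The daily mean counts and p values here are therefore descriptions. Sult2a4 holds 5.4% of the Sult2a5 stretches of 100 bases and 2.3% of those of Sult2a2, and their part was not tested. Sult5a1 fell by 0.62 ± 0.09, from a mean of 3.55 under NRF to 1.94 scaled counts under DRF (limma adjusted p = 1.3e-06). Rhythms were called for 2 of 7 under DRF and 1 of 7 under NRF, where 34.9% and 43.5% of all genes were rhythmic. Sult3a2 was rhythmic under DRF with a peak at ZT18.5 (limma adjusted p = 0.0409), and its rhythm differed between regimens (adjusted p = 0.0119). Sult1c2 was rhythmic in both, peaking at ZT1.70 under DRF and ZT9.63 under NRF on the log2 scale (limma adjusted p = 3.4e-07 and 6.5e-13).

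Of 7 genes that supply and recycle PAPS, 5 were rhythmic under DRF, 5 under NRF and 4 differed in rhythm between regimens, where 34.9%, 43.5% and 38.7% of all genes did. In daily mean 1 rose and 0 fell by limma (2 and 0 at an unadjusted p under 0.05), where 4.09% and 2.69% of all genes did. Papss1, the other PAPS synthase, peaked at ZT9.39 under DRF and ZT22.6 under NRF (limma adjusted p of the difference = 7.5e-11). Slc35b2, a PAPS transporter of the Golgi, peaked at ZT23.7 and ZT8.84 (limma adjusted p = 1.9e-09). Slc26a1, which carries sulfate into hepatocytes, was rhythmic under NRF with a peak near ZT18 (limma adjusted p = 0.00040), and under DRF its adjusted p was 0.143.

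Of 9 genes from cysteine to sulfate 7 were rhythmic under DRF, 7 under NRF and 8 differed in rhythm (34.9%, 43.5% and 38.7% of all genes). In daily mean 4 rose under DRF and 0 fell by limma (4 and 1 at an unadjusted p under 0.05), beside 4.09% and 2.69% of all genes. Got1 rose by 0.53 ± 0.10, Cth, which makes cysteine, by 0.51 ± 0.08, and Suox, which oxidises sulfite to sulfate, by 0.34 ± 0.04 on the log2 scale (limma adjusted p = 0.00013, 9.9e-06 and 6.9e-08). This list too was chosen with earlier results of these data known, so its daily mean values are descriptions. Of 6 nuclear receptors 5 were rhythmic under DRF and 5 under NRF, and 5 differed in rhythm (34.9%, 43.5% and 38.7% of all genes). In daily mean 0 of the 6 rose and 0 fell under DRF by limma, where 4.09% and 2.69% of all genes did. At an unadjusted p under 0.05, 2 were higher and 0 lower under DRF. Among the 6 receptors Nr1i3, which encodes CAR, peaked at ZT2.24 under DRF and ZT12.0 under NRF, and Ppara at ZT23.5 and ZT11.1 (limma adjusted p of the difference = 4.9e-12 and 1.0e-15).

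The genes most like each member were sought by Pearson's r across the 14 group means of log2 values, over 8874 other genes with a mean of at least 5 scaled counts. These means come from the same libraries, and the values are descriptions. Slc22a29 was nearest to Sult2a1 (r = 0.938), Sult2a2 (0.927) and Sult2a5 (0.960). Sult2a3 was nearest to Myo1d (0.939), Vldlr (0.939), Cyp3a59 (0.921), Cyp2a22 (0.917) and Park7 (0.917). Papss2 was nearest to Abcd3 (0.911), Ces1d (0.863), Samm50 (0.846), Acaa1b (0.825) and Akr1c20 (0.822). Sult1d1 was nearest to Bche (0.975), Sult1a1 to Ahcy (0.924), Sult3a1 to Snrnp200 (0.901), Sult1b1 to Nln (0.899) and Sult2a8 to Togaram1 (0.889).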

How the data were processed

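Strand-specific, ribosome-depleted libraries were prepared from each liver and sequenced in pairs, per the labels' protocol text (their molecule field says polyA). The submitters' processing notes name CASAVA 1.8, featureCounts 1.5.0-p3 and the builds mm10 and GRCm38.p6; which aligner was used, and whether counting was by strand, is not given in the sources used here. The authors deposited gene and transcript values named TPM, which are treated as a score because they are not linear: value times exon length equals a·ln(1 + f·k) with whole counts k, a library factor a and a scale f. The scaled count f·k was rebuilt for 25386 of 25415 genes with GENCODE vM21 exon lengths. In 12088 genes kept out of the curve fit, between 96.6% and 99.0% of values lay within 0.05 of a whole number, where 10% would by chance. Papss2 gave whole counts with a length of 3635 bases in place of the annotated 3721. Sult2a1 and Sult2a2 were too deep for this check in most libraries and used the annotated length. Transcript values were used as deposited, and the circRNA table was not used.

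Tests were made with limma 3.58.1 (R 4.3.3, trend) on log2(scaled count + 1) over 56 libraries, with a mean, cosine and sine per regimen, Benjamini-Hochberg adjustment over all genes and a threshold of 0.05; the fit was tested on simulated data. Peaks of the members came from least-squares 24-h cosine fits per regimen on scaled counts. Those of all other genes came from the limma cosine terms on log2(scaled count + 1). The design named TPM, and the same tests were applied to scaled counts. As a second rhythm test, an exact rank test (Kendall) compared each gene with 12 cosine curves whose peaks were set every 2 h. Correlations used 100000 permutations, two-sided. Other settings were the deposited values, another pseudocount, filter, scaling, length index and replicate block, and omitted replicates, times and libraries. The members and the gene lists were chosen with earlier results of these data known. All members were named; of other lists, up to 3 genes past the threshold with the largest daily mean difference or amplitude, and Sult1c2, Sult2a4 and Sult2a7 in addition after their values were seen. Same-numbered samples are different animals, and 0 columns were left unassigned.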

Additional observations from a re-analysis of the deposited data

Results flagged for a closer look

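Among 140 sets of 4 libraries (10 genes in 14 groups), 8 had a library far from the other 3, and chance gives about 1 in 20. Sult2a2 was low in an NRF ZT0 library (297 scaled counts), the library in which Sult2a1, Sult2a3 and Sult2a5 were also lowest. Sult2a8 was high in a DRF ZT4 library (532) and in a DRF ZT16 library (606). Sult1a1 was low in an NRF ZT12 library (136) and Sult1d1 in a DRF ZT8 library (167). Sult1b1 was high in an NRF ZT24 library (35.3), and an NRF ZT20 library each was high in Sult1d1 (337) and Papss2 (375).

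The 24-h rhythm differed between regimens by limma for Sult1a1 (adjusted p = 0.00039), Sult1b1 (adjusted p = 1.6e-05), Sult3a1 (adjusted p = 0.00039) and Papss2 (adjusted p = 0.0078).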

How the results depend on the processing

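Of 598 values of single members under other settings, 562 kept their side of the threshold or stayed within their error, 14 moved further, 4 gained and 18 lost a call. The daily mean difference of Sult2a8, near 0 at -0.02, was above 0 with deposited values (0.0056), with the length index (0.0018), without replicate number 3 (0.0052) and without the ZT0 libraries (0.0037); no other member's changed sign. The Sult3a1 peaks, 11.6 h apart in one direction, were 11.4 h apart in the other without replicate number 4, which on a 24-h circle is a small move. The count of members rhythmic under DRF was 4, and 2 with the length index as covariate; under NRF it was 5, and 3 in the rank test. Without 1 replicate number in every group, the counts ran from 2 to 4 under DRF and from 3 to 5 under NRF, and the median size of the phase shift of Sult1d1, Sult3a1 and Papss2 from 4.93 to 7.29 h (5.45 h with all). The 12-h component of Sult1b1 was lost (count 0) with deposited values and whichever replicate number was left out (0 to 0). For ZT24 against ZT0 the count over both regimens was 0, but 2 with only genes of a mean of at least 1 scaled count and 11 with deposited values; the cause was not tested. On the log scale of the deposited values, which takes a logarithm of a logarithm, the median member difference was 0.071 over the day and 0.099 at single times, in place of 0.33 and 0.45. Leaving out replicate 1 of NRF ZT0, chosen after seeing the data, changed no call. With replicate number as a block the counts were again 4 under DRF, 5 under NRF and 4 for the difference, and no member's call changed; same-numbered samples of other groups had a mean correlation of 0.0032, so the numbers pair nothing. The recovered counts are not reads, so counting error could not be set for low genes such as Sult2a3 under NRF.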
